A study of Arabidopsis thaliana with 25 samples.

Results

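Small heat shock proteins are compact chaperones with a conserved alpha-crystallin domain that bind unfolding proteins and hold them until larger chaperones can refold them. In Arabidopsis a family of nuclear genes encodes forms for the cytosol, mitochondria, plastids, endoplasmic reticulum and peroxisomes. Most are scarcely transcribed at normal growth temperature and are switched on by heat shock factors after heat or other stress that damages proteins. The genes described here are 9 small heat shock protein loci of a list drawn from the annotation, each with a row of its own on the array, out of 16552 genes with such a row. Of the 9, AT4G21870 and AT5G51440 were singled out because they were higher after dexamethasone, and the question was whether the other 7, picked for their family, followed. AT1G07400, AT1G53540, AT1G59860 and AT2G29500 belong to cytosolic class I, AT1G54050 to class III, AT5G37670 is peroxisomal, and AT5G51440 and AT1G52560 are mitochondrial; these classes are background knowledge of the loci and not taken from the files.

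The study used roots of 4-day-old Col-0 seedlings with a pRPS5A::PEAR1-GR or a pRPS5A::PEAR2-GR transgene, in which the DOF transcription factor PEAR1 or PEAR2 is fused to the steroid-binding region of a glucocorticoid receptor (GR). The pRPS5A promoter drives the fusion in dividing cells, and dexamethasone (DEX) lets the fusion enter the nucleus. Cycloheximide (CHX) blocks translation, so that a response to the fusion that needs no new protein can be looked for. Each line had DMSO for 1 h, DEX for 2 h, DMSO+CHX for 2 h and DEX+CHX for 2 h, with 3 arrays per group and 4 for PEAR1 DEX+CHX, 25 in all. Every plant carried a GR fusion, so DEX and CHX acted on no line without one, and no heat treatment is named in the labels.

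All values are log2 intensities as the authors deposited them, normalized with RMA, and changes are differences on that log2 scale. Each change has its standard error (SE), taken from limma over all arrays. A gene was called when its Benjamini-Hochberg adjusted p, over the 17504 rows that name a gene, was under 0.05. Replicate arrays correlated at 0.988 to 0.994, and an array with CHX against one without at 0.890 to 0.922. PEAR2 itself was measured at 10.73 to 12.10 in the PEAR2 line and at 5.91 to 8.90 in the PEAR1 line, as labelled. The level of PEAR1 was not analysed here. The labels call the tissue root and also root tips. Only 1 of 15 root markers, AT3G09260, had a row and stood at 12.03 to 12.64 in every array, and 2 of 15 green tissue markers had one. Whether replicates were separate cultures is not stated, so the p-values describe the spread between these arrays and may be technical. In whole roots, fewer cells of a type and less RNA per cell cannot be told apart.

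AT4G21870 was the strongest of the 9 with DEX in both lines. In the PEAR1 line its DMSO arrays read 4.87, 4.62 and 4.80 and its DEX arrays 7.61, 7.76 and 7.10. The PEAR2 line gave 4.23, 5.08 and 4.75 in DMSO and 8.23, 7.94 and 8.12 with DEX. Every DEX array lay far above every DMSO array of its line. The change was 2.73 ± 0.20 (SE), or 6.64-fold, in the PEAR1 line and 3.41 ± 0.20, or 10.6-fold, in the PEAR2 line. These values chose the gene and are given without a test.

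AT5G51440, the mitochondrial form, was the other gene chosen for its rise. Its arrays read 5.81, 5.92 and 5.46 in PEAR1 DMSO and 7.22, 7.66 and 7.83 in PEAR1 DEX. The PEAR2 arrays read 5.26, 5.88 and 5.16 in DMSO and 6.61, 6.19 and 6.26 with DEX. The groups were apart in both lines, by a wide gap with PEAR1-GR and a narrow one with PEAR2-GR. The change was 1.84 ± 0.27, or 3.59-fold, in the PEAR1 line and 0.92 ± 0.27, or 1.90-fold, in the PEAR2 line, again as a description. The larger response was thus that of the PEAR1 line for AT5G51440 and that of the PEAR2 line for AT4G21870, a contrast in order that was not tested because both sides of it were used in the choice.

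Of the other 7 genes, 1 followed with PEAR1-GR and none with PEAR2-GR. AT1G07400, a cytosolic class I chaperone gene, read 3.63, 3.53 and 3.72 in PEAR1 DMSO and 4.81, 5.10 and 5.77 in PEAR1 DEX. The DEX arrays were all higher. The gene rose by 1.60 ± 0.27, or 3.03-fold (limma adjusted p = 0.00116). In this comparison 1.27% of all named rows rose and 1.81% fell, and nothing is read from these shares because the family was picked with the comparison in view. The call held in all 14 fits run, the alternatives included, with limma adjusted p between 0.000425 and 0.0358, and the change was 1.33 without PEAR1 DEX replicate 3.

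With PEAR2-GR the same gene did not move past its spread. AT1G07400 read 3.49, 4.41 and 3.77 in PEAR2 DMSO and 4.18, 3.18 and 4.06 in PEAR2 DEX. These arrays overlapped throughout, with a difference of -0.08 ± 0.27 (95% interval -0.65 to 0.48, limma adjusted p = 0.933). The difference between the responses of the lines was 1.68 ± 0.38, with a limma adjusted p = 0.0890, and 0.0540 to 0.344 over the alternatives. None of the 7 genes passed for this difference between lines, where 0.109% of all named rows did, and AT1G07400 alone had an unadjusted p under 0.05, as had 10.1% of the rows.

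**Figure D1:**
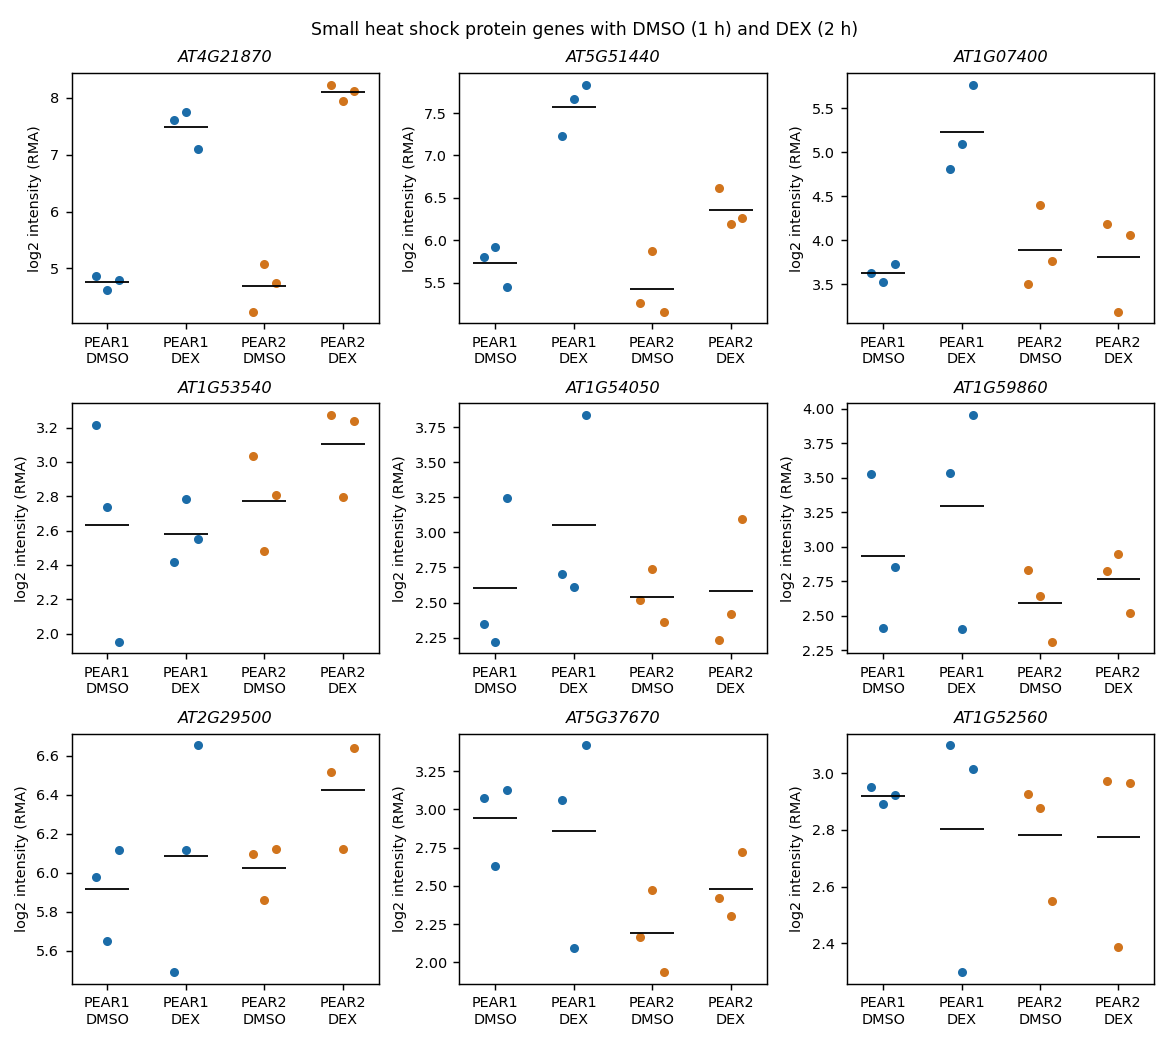
Log2 intensity of the 9 genes in the 4 groups without CHX, 1 panel per gene with its own vertical scale. Points are single arrays, black bars group means (n = 3 each), blue the PEAR1 line and orange the PEAR2 line. DMSO and DEX are apart in both lines for AT4G21870 and AT5G51440, in the PEAR1 line for AT1G07400 and, by under 0.01, in the PEAR2 line for AT2G29500.

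None of the remaining class I genes passed. AT2G29500 read 5.98, 5.65 and 6.11 in PEAR1 DMSO and 5.49, 6.12 and 6.66 in PEAR1 DEX, with the lowest and the highest array both among the DEX arrays. With PEAR2-GR it read 6.10, 5.86 and 6.12 in DMSO and 6.52, 6.12 and 6.64 with DEX, where the groups came within 0.01 of each other without overlap. Its changes were 0.17 ± 0.21 and 0.40 ± 0.21 in the PEAR1 and PEAR2 lines (limma adjusted p = 0.798 and 0.397). AT1G53540 differed by -0.05 ± 0.23 and 0.33 ± 0.23, and AT1G59860 by 0.37 ± 0.28 and 0.17 ± 0.28, with overlapping arrays in each case. The upper ends of the 95% intervals of these 3 genes lay between 0.42 and 0.96. Without CHX the group means of AT1G53540 and AT1G59860 were low, between 2.58 and 3.30, in a table whose 25th percentile is 2.03.

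The class III gene AT1G54050 differed by 0.45 ± 0.30 with PEAR1-GR and 0.04 ± 0.30 with PEAR2-GR. The peroxisomal AT5G37670 differed by -0.08 ± 0.34 and 0.29 ± 0.34. For AT1G52560, the second mitochondrial form, the differences were -0.12 ± 0.28 and -0.01 ± 0.28. The adjusted p-values of these 3 genes were 0.563 or higher in limma, and their intervals reached at most 1.07. Their group means without CHX were between 2.19 and 3.05, in the lower part of a table whose 25th percentile is 2.03, and without detection calls a low value cannot be read as absence. In the PEAR2 line, where 2.15% of all named rows rose and 1.95% fell, none of the 7 passed in limma and none had an unadjusted p under 0.05, against 15.4% of the rows.

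The 7 genes had a median change of 0.17 in each line, beside 0.00 (PEAR1) and 0.01 (PEAR2) over all named rows. In the PEAR1 DEX group, replicate 3 was the highest of the 3 arrays for 6 of the 9 genes and for 7 of 9 larger chaperone genes, against 30.8% of all rows. Its part in the result was not tested, and AT1G07400 kept its call without that array. In the same line the green tissue marker AT2G39730, which encodes Rubisco activase, was lower with DEX, by 0.61 ± 0.16 (limma adjusted p = 0.0414). That call needed each of PEAR1 DMSO replicates 1 and 3 and PEAR1 DEX replicates 1, 2 and 3 (-0.51 to -0.66 when left out), and was also lost with the replicate block, over all rows of the table and with the 6 arrays alone. In the PEAR2 line AT2G39730 was lower with DEX too, by 0.39 ± 0.16, but did not pass (limma adjusted p = 0.233). For each array the log2 values of the 2 green tissue markers with a row were added. These sums were 11.1 to 12.0 in PEAR1 DMSO and 10.6 to 10.8 in PEAR1 DEX. In the PEAR2 line they were 11.7 to 12.4 in DMSO and 11.1 to 11.8 with DEX, which overlapped. The part of these markers in the result was not tested. DEX cannot be told apart from time here, with sampling at 2 h against 1 h for DMSO.

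Other genes of the heat shock response were taken from lists of the pathway. These lists were chosen with earlier results of these data known, so nothing is read from their shares. Of 26 heat shock factors and related regulators 1 had a row, DREB2C (AT2G40340), a DREB-type transcription factor gene of the heat stress pathway. It rose in both lines, by 1.27 ± 0.24 to 4.88 with PEAR1-GR (limma adjusted p = 0.00357) and by 2.19 ± 0.24 to 4.94 with PEAR2-GR (adjusted p = 8.45e-06). A fit of the 6 arrays of PEAR1 DEX and PEAR1 DMSO alone ended the former call (limma adjusted p = 0.0928). In DEX+CHX against DMSO+CHX, where batch differs too, DREB2C stood at -0.27 ± 0.23 with PEAR1-GR and -0.79 ± 0.24 with PEAR2-GR, and neither passed. It rose by 2.02 in DEX+CHX against DEX. The rise was 4.28 in DMSO+CHX against DMSO, where batch and time differ along with CHX.

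Of 33 larger heat shock proteins and co-chaperones, 9 had a row, and 3 of them rose in the PEAR1 line while none fell, beside 1.27% and 1.81% of all named rows. Fes1A (AT3G09350), a nucleotide exchange factor that protects cytosolic HSP70, rose by 0.82 ± 0.14 (limma adjusted p = 0.00120). AT5G48570, the FKBP-type co-chaperone gene ROF2, rose by 0.89 ± 0.20 (adjusted p = 0.0119), and Hsp70-2 (AT5G02490) by 0.71 ± 0.18 (adjusted p = 0.0263). Without PEAR1 DEX replicate 3 AT5G48570 stood at 0.63 and Hsp70-2 at 0.57 and neither passed, and Hsp70-2 also lost its call without each of the 3 PEAR1 DMSO arrays (0.68 to 0.72) and with the replicate block (adjusted p = 0.0520). A fit of the 6 arrays alone ended all 3 calls.

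The 9 chaperone genes had a median change of 0.36 in the PEAR1 line, and 6 had an unadjusted p under 0.05, against 14.1% of all named rows. In the PEAR2 line none passed in limma, 1 had an unadjusted p under 0.05, against 15.4% of the rows, and the median was 0.03. The differences between lines for Fes1A (0.68 ± 0.20) and AT5G48570 (1.01 ± 0.28) had limma adjusted p = 0.199 and 0.149. The 4 further small heat shock protein genes with a row, AT2G19310, AT5G54660, AT4G10250 and AT5G47600, lay between -0.03 and 0.46 with PEAR1-GR and between -0.33 and -0.08 with PEAR2-GR, and none passed in limma, with none at an unadjusted p under 0.05.

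With translation blocked, none of the 9 genes rose with DEX. This comparison shares no array with the choice of genes, so all 9 were tested. However, DMSO+CHX was in batch A461 and DEX+CHX in batch A451, so that batch and DEX cannot be told apart. AT4G21870 read 6.62, 6.27 and 6.40 in PEAR1 DMSO+CHX and 6.09, 5.71, 5.88 and 6.05 in PEAR1 DEX+CHX. The DEX+CHX arrays were all the lower ones. The difference of -0.50 ± 0.19 did not pass (limma adjusted p = 0.167), and its 95% interval of -0.89 to -0.11 held no rise.

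In the PEAR2 line AT4G21870 read 6.76, 6.96 and 7.18 in DMSO+CHX and 6.48, 7.11 and 6.60 in DEX+CHX, which overlapped. The difference was -0.24 ± 0.20 (95% interval -0.66 to 0.18, limma adjusted p = 0.581). The difference between the comparisons with and without CHX was not tested.

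AT5G51440 fell with DEX+CHX in the PEAR2 line. Its arrays read 8.21, 8.27 and 8.36 in PEAR2 DMSO+CHX and 6.77, 7.24 and 7.38 in PEAR2 DEX+CHX, without overlap. The gene fell by 1.15 ± 0.27, or 2.22-fold (limma adjusted p = 0.0100), where 3.96% of all named rows rose and 3.48% fell, and of the 9 genes 1 fell. Without PEAR2 DEX+CHX replicate 1, its lowest array, the difference was -0.97 and the call was lost (adjusted p = 0.0682). Against PEAR2 DMSO, which shares the batch of DEX+CHX but has no CHX, the gene stood 1.70 higher, given without a test. That control adds CHX and a later time by construction, and DMSO+CHX stood 2.85 above DMSO in this line. Nothing about the fall can be read from it. In PEAR2 DMSO+CHX replicate 3 was the highest array for 6 of the 9 genes and 7 of 9 chaperone genes, against 31.5% of all rows, and the call held without it.

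In the PEAR1 line AT5G51440 read 7.46, 7.33 and 7.51 in DMSO+CHX and 6.94, 8.04, 7.03 and 6.59 in DEX+CHX. Replicate 2 was the highest of all and the other DEX+CHX arrays were the lowest. The difference was -0.29 ± 0.25 (95% interval -0.80 to 0.23, limma adjusted p = 0.653). A difference of 0.87 ± 0.36 between the lines did not pass either (adjusted p = 0.750), nor did that of any other of the 9 genes, where 0.0171% of all named rows passed. It was the only one of the 9 with an unadjusted p under 0.05, against 6.16% of the rows.

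AT1G07400, the follower without CHX, read 2.64, 3.51 and 3.02 in PEAR1 DMSO+CHX and 3.34, 3.30, 3.66 and 3.45 in PEAR1 DEX+CHX. The arrays overlapped and the difference was 0.38 ± 0.25 (95% interval -0.15 to 0.91, limma adjusted p = 0.519). For PEAR2-GR it was -0.32 ± 0.27 (adjusted p = 0.585). The other 6 genes lay between -0.19 and 0.25 in the PEAR1 line and between -0.73 and 0.22 in the PEAR2 line, the lowest being AT5G37670 at -0.73 ± 0.34 (adjusted p = 0.226).

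In all, none of the 9 passed in limma in the PEAR1 line with CHX, where 2.18% of named rows rose and 1.41% fell, and 1 gene, AT4G21870, had an unadjusted p under 0.05, against 15.9% of the rows. With PEAR2-GR and CHX it was 2 genes, AT5G51440 and AT5G37670, against 20.1%. The median over the 9 was -0.08 with PEAR1-GR and -0.29 with PEAR2-GR, beside -0.01 and -0.02 over all named rows. With CHX 8 of the 9 genes lay below 0 in the PEAR2 line and 6 of the 9 in the PEAR1 line. Nothing is read from these signs, since batch and DEX cannot be told apart. That of AT1G52560 in the PEAR1 line also changed with an array left out.

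**Figure D2:**
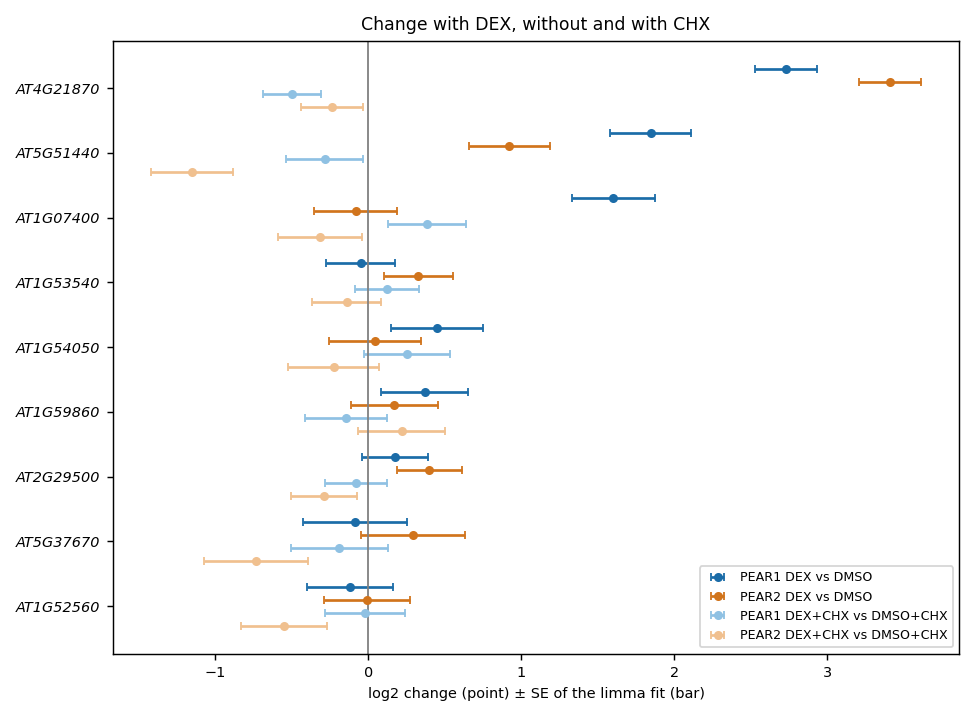
Log2 change with DEX for each gene (points) with the SE of the limma fit (bars), without CHX in dark colours and with CHX in light ones, blue for the PEAR1 line and orange for the PEAR2 line. The changes of AT4G21870 without CHX, at 2.73 and 3.41, are the farthest to the right, and that of AT5G51440 with CHX in the PEAR2 line, at -1.15, is the farthest to the left.

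Genes connected with mitochondrial stress were set beside AT5G51440. They come from a list of 17 such genes, of which 8 had a row. With DEX+CHX in the PEAR2 line 6 of the 8 fell and none rose, beside 3.48% and 3.96% of all named rows, and the median change of the 8 was -1.12. Nothing is read from the shares of this list, here or below, because it was chosen with earlier results of these data known. Batch and DEX cannot be told apart in this comparison. AT5G09570, which encodes a twin-cysteine protein of mitochondria, fell by 2.15 (SE 0.33, limma adjusted p = 0.000367), and AT2G21640, a marker of oxidative stress, by 1.97 (SE 0.29, adjusted p = 0.000225). AT2G04050 fell by 1.46, AT1G24095 by 1.14, AT5G43450 by 1.09 and AT5G40690 by 0.50. Against PEAR2 DMSO, of the same batch as DEX+CHX but without CHX, all 6 stood higher, by 0.50 to 5.01. That control adds CHX and a later time by construction, so nothing about the falls can be read from it. Without PEAR2 DEX+CHX replicate 1, the array that also decided AT5G51440, AT2G04050 stood at -1.22 and AT5G40690 at -0.38 and neither passed. AT5G40690 also lost its call without each PEAR2 DMSO+CHX replicate (-0.49 to -0.51) and in a fit of the 6 arrays alone (adjusted p = 0.0821).

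In the PEAR1 line with CHX all 8 lay below 0 and 1 passed, AT2G21640, which fell by 1.16 (SE 0.27, limma adjusted p = 0.0175), beside 1.41% of all named rows. Against PEAR1 DMSO of the same batch, a control without CHX, it stood 1.84 higher, which again includes the CHX difference. Its fall did not pass when PEAR1 DEX+CHX replicate 1, 3 or 4 or PEAR1 DMSO+CHX replicate 2 or 3 was left out (adjusted p = 0.0533 to 0.0925), in a fit of the 7 arrays alone (adjusted p = 0.0912) or with the replicate block (adjusted p = 0.0772). Without CHX none of the 8 passed with DEX in limma in either line, where 3 (PEAR1) and 1 (PEAR2) had an unadjusted p under 0.05, against 14.1% and 15.4% of all rows, and the medians were 0.16 and 0.01. Among the chaperones, AT5G48570 fell by 0.67 with DEX+CHX in the PEAR2 line (SE 0.20, adjusted p = 0.0385). Dropping any 1 of the 6 arrays ended that call (-0.54 to -0.75), as did a fit over all rows of the table or of the 6 arrays alone. In DEX+CHX against DEX 7 of the 8 mitochondrial stress genes rose (median 3.51), beside 22.6% of all named rows, and 7 of the 9 chaperone genes fell, beside 32.9%. In DMSO+CHX against DMSO 8 of 8 rose (median 4.51), beside 24.1%, and of the chaperones 7 fell, beside 30%, and 1 rose, AT2G20560, by 0.74 ± 0.16 (limma adjusted p = 0.000441), a gene named after its value was seen.

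Among the genes of the family, as among all named rows, levels with CHX went in both directions. DEX+CHX against DEX, which share batch and time, was taken as the mean of both lines, with 22.6% of all named rows higher and 32.9% lower. Of the 7 genes not chosen by their rise, 2 rose and 4 fell, and nothing about the family is read from these counts beside those shares. AT1G59860 read 3.54, 2.40 and 3.96 in PEAR1 DEX and 4.24, 4.06, 4.42 and 4.41 in PEAR1 DEX+CHX. With PEAR2-GR it went from 2.82, 2.95 and 2.52 to 4.94, 4.98 and 4.89. All CHX arrays were higher, and the gene rose by 1.58 ± 0.19 (limma adjusted p = 2.67e-07). The peroxisomal AT5G37670 rose by 0.73 ± 0.23 (adjusted p = 0.0103).

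The other class I genes went down. AT1G07400 fell by 1.33 (SE 0.19, limma adjusted p = 1.75e-06), by 1.79 in the PEAR1 line and by 0.87 in the PEAR2 line. AT2G29500 fell by 0.97 (SE 0.15, adjusted p = 5.08e-06) and AT1G53540 by 0.50 (SE 0.15, adjusted p = 0.00830). AT1G54050 fell by 0.87 (SE 0.21, adjusted p = 0.000893), to means of 2.13 and 1.75 at the low end of the table. AT1G52560, at -0.05 ± 0.19, did not pass. AT1G59860 and AT1G07400, of the same class, thus stood at 1.58 and -1.33. Near-identical members of this class can share array probes, which was not tested.

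Some of these calls depended on the scaling. The median change of all named rows was -0.12 as deposited, -0.09 after aligning the 75th percentile of each array, which changed no call among the 7 genes, and 0.13 after quantile normalization once more. With the last of these AT1G53540 (-0.01) and AT1G54050 (-0.46) no longer passed, and AT1G52560 turned to 0.47 and passed (adjusted p = 0.0357). AT1G59860, AT5G37670, AT1G07400 and AT2G29500 kept their direction and call.

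DMSO+CHX against DMSO gave 2 rises and 3 falls among the 7 tested genes, but here batch and time differ along with CHX and cannot be told apart from it. Over all named rows 24.1% were higher and 30% lower. AT1G59860 rose by 1.81 ± 0.20 (limma adjusted p = 5.08e-08) and AT5G37670 by 1.30 ± 0.24 (adjusted p = 6.77e-05). AT1G07400 fell by 0.60, AT1G54050 by 0.64 and AT2G29500 by 0.50, with adjusted p = 0.0102, 0.0133 and 0.00732. AT1G53540, at -0.35 ± 0.16, did not pass (adjusted p = 0.0666), but did without PEAR1 DMSO replicate 3 (-0.52) or PEAR2 DMSO replicate 2 (-0.43). The call of AT1G54050 was lost without PEAR1 DMSO replicate 3 (-0.48, adjusted p = 0.0532), and quantile normalization once more ended those of AT1G07400 (-0.17) and AT1G54050 (-0.31), put AT1G53540 at 0.02 and raised AT1G52560 from 0.18 to a called 0.60.

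**Figure D3:**
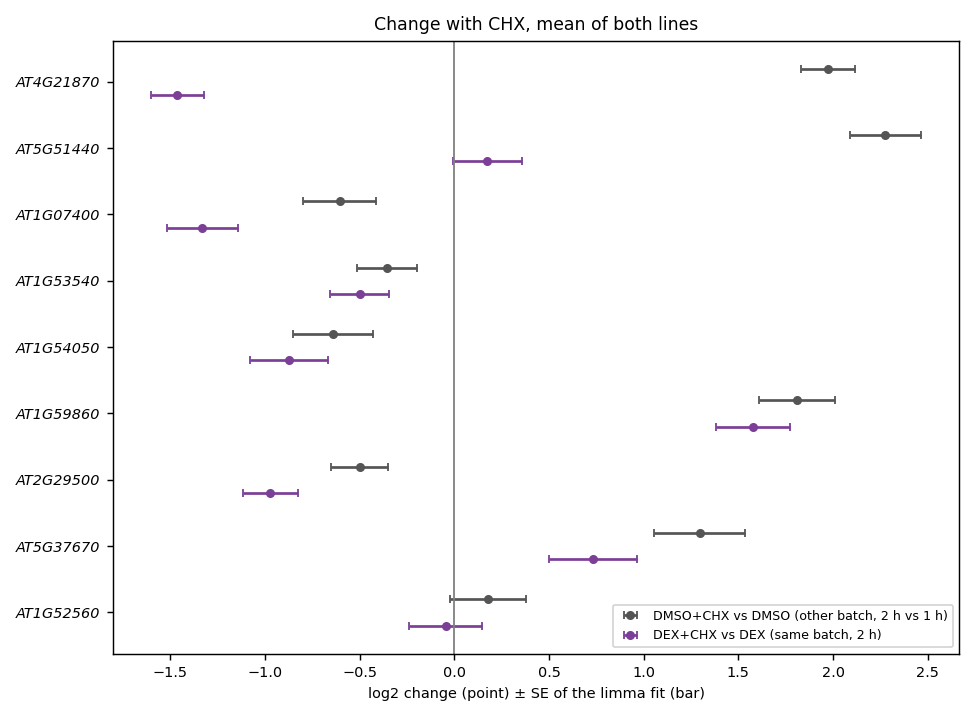
Log2 change with CHX for each gene as the mean of both lines (points) with the SE of the limma fit (bars). Grey is DMSO+CHX against DMSO, which differ in batch and time too, and purple DEX+CHX against DEX. AT1G59860 lies at 1.81 and 1.58 and AT1G07400 at -0.60 and -1.33, while AT4G21870 changes side, from 1.97 to -1.46.

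The 2 genes chosen by their rise with DEX were also high in DMSO+CHX, where batch and time differ from DMSO along with CHX. Their values are described without a test because the DMSO and DEX arrays served in their choice. AT4G21870 was 1.67 higher in DMSO+CHX than in DMSO in the PEAR1 line and 2.28 higher in the PEAR2 line. With DEX present, CHX went with a lower level, by -1.56 and -1.37. AT5G51440 was 1.70 and 2.85 higher with CHX in the absence of DEX. In the presence of DEX its CHX difference was -0.43 with PEAR1-GR and 0.77 with PEAR2-GR. AT4G21870 thus stood highest with DEX alone, and AT5G51440 highest in PEAR2 DMSO+CHX.

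Ordered by mean, AT4G21870 stood at 4.69 ± 0.43 (SD, n = 3) in PEAR2 DMSO and 4.76 ± 0.13 in PEAR1 DMSO, whose arrays overlapped. PEAR1 DEX+CHX followed at 5.93 ± 0.17 (n = 4), clear of the groups on either side. PEAR1 DMSO+CHX (6.43 ± 0.18), PEAR2 DEX+CHX (6.73 ± 0.34), PEAR2 DMSO+CHX (6.97 ± 0.21) and PEAR1 DEX (7.49 ± 0.34) formed a chain in which each overlapped the next. PEAR2 DEX, at 8.10 ± 0.15, lay above all.

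AT5G51440 ran from 5.43 ± 0.39 in PEAR2 DMSO and 5.73 ± 0.24 in PEAR1 DMSO, which overlapped, to 6.36 ± 0.23 in PEAR2 DEX, apart from both neighbours. PEAR2 DEX+CHX (7.13 ± 0.32), PEAR1 DEX+CHX (7.15 ± 0.62, n = 4), PEAR1 DMSO+CHX (7.43 ± 0.09) and PEAR1 DEX (7.57 ± 0.31) overlapped in turn. PEAR2 DMSO+CHX stood alone at 8.28 ± 0.08.

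AT1G07400 had a different order. From 2.93 ± 0.12 in PEAR2 DEX+CHX to 3.89 ± 0.47 in PEAR2 DMSO each of 7 groups overlapped the next, and PEAR1 DEX lay above them at 5.23 ± 0.49. In DMSO no difference between the lines passed in limma for the 7 tested genes, where 0.189% of all named rows passed. The widest gap was that of AT5G37670 at 0.75 ± 0.34 (adjusted p = 0.475), the only gene of the 7 with an unadjusted p under 0.05, against 9.83% of the rows.

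**Figure D4:**
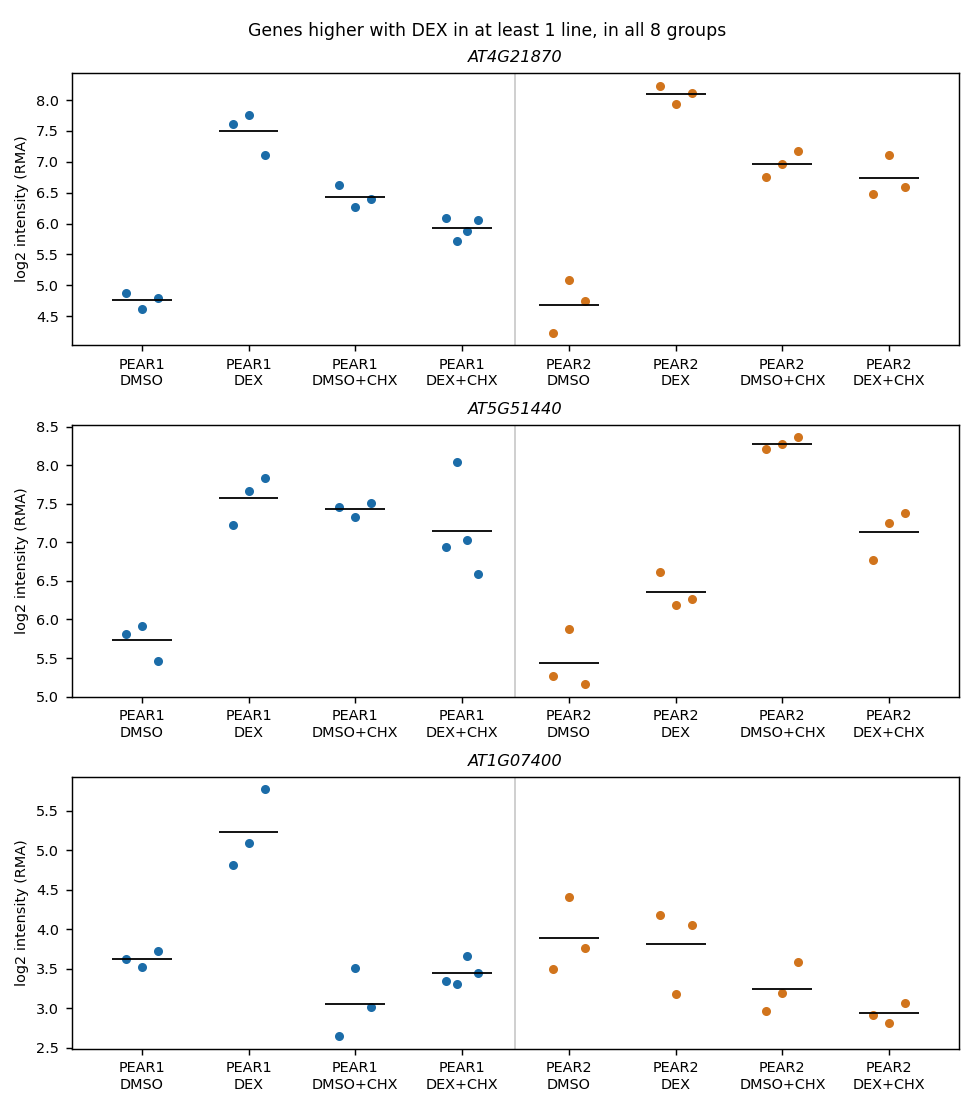
Log2 intensity of AT4G21870, AT5G51440 and AT1G07400 in all 8 groups, with the PEAR1 line in blue on the left and the PEAR2 line in orange on the right. Points are single arrays and black bars group means (n = 3, and 4 for PEAR1 DEX+CHX), and each panel has its own vertical scale. AT4G21870 peaks at 8.10 in PEAR2 DEX, AT5G51440 at 8.28 in PEAR2 DMSO+CHX and AT1G07400 at 5.23 in PEAR1 DEX.

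The genes whose levels ran most like those of the chosen pair were found by Pearson's r across the 25 arrays, as a description. For AT4G21870 they were AT4G18340 (r = 0.90), PSY1R, a receptor kinase gene of peptide signalling (0.88), AT2G48080 (0.87), AT1G80380, the gene of photorespiratory glycerate kinase (0.86), and AT5G48430 (0.85). For AT5G51440 they were AT1G55530 and AT1G56300 (0.86 each), AT5G60760 (0.85), AT1G10225 (0.84) and AT2G43630 (0.84). None of the 10 is on the small heat shock protein list, but only 13 genes of that list had a row, among 16552 genes. Nothing about the family is read from that. Within the family AT5G51440 gave r = 0.69 with AT1G59860, 0.64 with AT5G37670 and 0.56 with AT4G21870. With the rest of the 9 genes it gave -0.39 to 0.23. AT4G21870 gave -0.02 to 0.19 with the genes not chosen by their rise. CHX separates the arrays, so r was also taken apart: AT4G18340 gave 0.98 over the 12 arrays without CHX and -0.20 over the 13 with it, whereas AT5G48430 gave 0.96 and 0.87. For AT5G51440 the likeness to AT1G10225 was 0.79 without CHX and 0.85 with it, the highest with CHX of its 5 genes. The lowest with CHX was that to AT5G60760, at 0.82 without CHX and 0.50 with it.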

How the data were processed

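The deposited table holds log2 intensities that the authors made with RMA per the submitters' processing notes, from 1-colour Affymetrix arrays; its version and options and the genome build were not given in the sources used here. It has 38408 rows and 25 columns. Rows were named from the platform annotation, brought up to date by gene identifier with RefSeq's table: 16746 name 1 gene (16601 matched), 758 several and 20904 none. Each of the 9 loci had 1 row. Groups, replicate numbers, times and batches came from the labels.

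The 17504 rows that name a gene were fitted in limma 3.58.1 (lmFit and eBayes, R 4.3.3), all arrays together with 8 group means, with Benjamini-Hochberg adjustment over them. Batch could not be fitted, since DMSO+CHX is alone in batch A461. AT4G21870 and AT5G51440 were not tested in comparisons that use the DMSO or DEX arrays without CHX. The genes, lists and tests were chosen with earlier results of these data known. Named are the 9 genes, the 4 further family genes with a row, PEAR2 and the 5 rows most like each chosen gene. List genes called in a DEX comparison, the root marker with a row and AT2G20560 are named too, the last after its value was seen. Replicate numbers within a line were checked for pairing: deviations of same-numbered arrays correlated between -0.118 and 0.0969 (36 pairs), so no block was used. The fits were tested on simulated data with independent noise and no effect of batch or time, so that check does not bear on those limits. Alternatives are given in the closing section. Plots used Python 3.11.15 with matplotlib 3.10.9.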

Additional observations from a re-analysis of the deposited data

Results flagged for a closer look

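Among the 9 genes in the only group of 4 arrays, PEAR1 DEX+CHX, 1 value stood far from the others. AT1G54050 read 2.28, 2.37, 2.25 and 1.62, so that the gap below the nearest array was 0.844 of the whole range. Chance gives such a gap in about 1 in 20 groups, and 9 were looked at. No difference between lines in the DEX response passed the threshold among the 16 that were tested.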

How the results depend on the processing

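Counts of called genes among the 9 moved with few choices, while counts over all named rows moved with many, and where no cause is given it was not tested. In the order PEAR1 DEX, PEAR2 DEX, their difference, PEAR1 DEX+CHX, PEAR2 DEX+CHX and lines in DMSO, the model called 538, 717, 19, 628, 1302 and 33 rows, and a fit of only the groups compared, with fewer arrays, called 122, 166, 2, 380, 569 and 3. All rows of the table, with more rows tested, gave 1017, 1201, 77, 1127, 2402 and 63, with 22549 and 21912 for CHX with and without DEX (9716 and 9475 as reported) and 0 for the difference between lines under CHX (3 as reported). An intensity trend with robust prior gave 49 for the difference in DEX response and 59 for lines in DMSO. Without the rows of lowest mean, 33.3% of all, it was 37 and, for the difference under CHX, 5, and quantile normalization once more gave 30 and 1. It also turned AT1G52560 to 0.0366 in PEAR1 DEX+CHX and to 0.47 in CHX with DEX, and AT1G53540 to 0.0180 in CHX without DEX.

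With the replicate block, PEAR1 DEX+CHX gave 366 called rows and AT2G29500 stood at 0.0172. The block changed no call among the 9 genes. Same-numbered arrays were not paired by the check, and 9 of 25 arrays correlated best with their own number. No paired analysis was possible for the lines in DMSO because the block lies within a line.

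DMSO of the same batch as control for DEX+CHX, which adds the effect of CHX by construction, called 1 of the 7 genes not chosen by their rise and 8081 rows with PEAR1-GR, and 5 and 7779 with PEAR2-GR. AT4G21870 and AT5G51440 were not tested in it, because these DMSO arrays served in their choice. In the PEAR1 line AT4G21870 then stood at 1.17, AT5G51440 at 1.42, AT1G07400 at -0.19, AT1G53540 at -0.28, AT1G54050 at -0.47, AT1G59860 at 1.35, AT5G37670 at 0.51 and AT2G21640 at 1.84. In the PEAR2 line the 5 called genes were AT1G59860 at 2.34, AT5G37670 at 1.16, AT1G07400 at -0.96, AT2G29500 at -0.90 and AT1G54050 at -0.78. AT4G21870 stood at 2.04 there and AT5G51440 at 1.70. The mitochondrial stress genes AT2G21640, AT5G09570 and AT5G40690 stood at 2.11, 0.50 and 1.40. AT2G04050 stood at 4.52, AT5G43450 at 5.01 and AT1G24095 at 0.95.

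Leaving out each array in turn called 1 to 1 of the 7 genes and 349 to 455 rows for PEAR1 DEX (lowest without PEAR1 DEX replicate 1), and 0 to 0 and 465 to 646 for PEAR2 DEX (lowest without PEAR2 DMSO replicate 3). It called 0 to 0 and 5 to 56 for their difference (highest without PEAR2 DMSO replicate 2, lowest without PEAR1 DEX replicate 3), and 0 to 0 and 9 to 49 for lines in DMSO (lowest without PEAR1 DMSO replicate 1). With CHX it called 0 to 0 of the 9 genes and 227 to 574 rows for PEAR1 (lowest without PEAR1 DMSO+CHX replicate 3), 0 to 1 and 696 to 980 for PEAR2 (lowest without PEAR2 DEX+CHX replicate 1), and 0 to 0 and 0 to 9 for their difference (highest without PEAR2 DEX+CHX replicate 2). For CHX with DEX it called 6 to 6 of the 7 genes and 9277 to 9596 rows, and without DEX 5 to 6 and 9181 to 9380. Counts over all rows also moved by over 1.5 times without PEAR1 DEX+CHX replicate 3 (329) and PEAR1 DMSO+CHX replicates 1 and 2 (390 and 333) for PEAR1 with CHX, and without PEAR2 DMSO+CHX replicates 1 and 3 (817 and 711) for PEAR2 with CHX. For the difference in DEX response they did so without PEAR1 DMSO replicate 1 (7), PEAR1 DEX replicate 1 (12) and PEAR2 DEX replicates 1, 2 and 3 (37, 8 and 35), and for lines in DMSO without PEAR1 DMSO replicate 3 (12) and PEAR2 DMSO replicates 1, 2 and 3 (21, 15 and 20). The difference under CHX, with 3 rows called, moved without 9 of the 13 arrays. Genes that were not called changed sign with an array left out, over these ranges. In PEAR1 DEX+CHX they were AT1G52560 -0.21 to 0.22, AT2G29500 -0.13 to 0.0172 and AT1G53540 -0.031 to 0.20. For CHX with DEX they were AT1G52560 -0.17 to 0.049. In PEAR1 DEX they were AT1G53540 -0.39 to 0.24, AT5G37670 -0.37 to 0.30, AT1G52560 -0.26 to 0.14 and AT2G29500 -0.11 to 0.47. For the difference in DEX response they were AT1G59860 -0.13 to 0.65, AT2G29500 -0.51 to 0.0725, AT5G37670 -0.66 to 0.0075 and AT1G52560 -0.30 to 0.14. For lines in DMSO they were AT2G29500 -0.21 to 0.0198, AT1G53540 -0.43 to 0.20 and AT1G54050 -0.26 to 0.26. In PEAR2 DEX they were AT1G52560 -0.13 to 0.18, AT1G07400 -0.28 to 0.23 and AT1G54050 -0.22 to 0.22.

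The number of arrays limits precision, the table has no detection calls, and low rows such as AT1G54050 and AT1G52560 have wide intervals. DEX is bound to time without CHX and to batch with it.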
